A study of Mus musculus with 2 samples.

Results

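The clustered replication-dependent histone genes encode the linker histone H1 and the core histones H2A, H2B, H3 and H4. They were taken as every protein-coding gene of the GENCODE vM21 mouse annotation (genome build mm10, also called GRCm38) whose symbol begins with Hist1h, Hist2h, Hist3h or Hist4h. The rule gave 67 of 21938 protein-coding genes: 6 genes for H1, 18 for H2A, 18 for H2B, 12 for H3 and 13 for H4. Of these, 54 belong to Hist1 on chromosome 13, 10 to Hist2 on chromosome 3, 2 to Hist3 on chromosome 11 and 1 to Hist4 on chromosome 6. The Hist1 genes fell into a pair of clusters, 23 genes over 328 kb at chr13:21715763-22043676 (cluster 1) and 31 genes over 404 kb at chr13:23531050-23934851 (cluster 2). In GENCODE, 62 of the 67 genes had single-exon transcripts alone.

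As background, these genes supply the histones that package newly copied DNA, and their transcription rises as cells enter S phase. NPAT, a target of cyclin E and CDK2, gathers at the clusters in nuclear foci called histone locus bodies. Their short mRNAs end in a stem-loop bound by SLBP in place of a poly(A) tail. In mammals several types have promoter elements of their own: HINFP (HiNF-P) binds H4 promoters, OCT1 (Pou2f1) an octamer of H2B promoters, and H1 promoters carry an AC box, while CCAAT boxes are bound by NF-Y.

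Open chromatin was measured by DNase-seq, in which DNase I cuts accessible DNA and the cut ends are sequenced. The 2 libraries, replicates 1 and 2, came from liver of mouse embryos at 13.5 days, strain C57BL/6N,129, carrying the alleles LCR deletion and HET globin mutation. They form 1 group with no control, the sex was not collected, and both biosamples carry the same donor identifier. Neither the extent of these alleles nor any pooling of embryos is given in the sources used here. The spread between the libraries may therefore be technical. Replicate 1 had 47198 peaks and 123897 footprints, and replicate 2 had 36523 peaks and 94430 footprints, where a footprint is a short stretch inside open DNA that DNase I cut less than its surroundings. Each peak carries the authors' signal value, with a median of 1.23 over all peaks in replicate 1 and 1.25 in replicate 2, and the depth in reads was not given in the sources used here. Of the marker genes, 9 of 9 erythroid genes in replicate 1 and 8 of 9 in replicate 2 had a promoter peak, the highest at Tfrc with 18.1 and 7.46. Of the hepatoblast markers, 4 had one in replicate 1 and 2 in replicate 2, among them Afp with 1.15 and 0.624, while Alb and Hnf4a had none in either library. The peak near Foxa3 had the same values as that of Sympk. Macrophage markers had one in 1 of 5, endothelial markers in 1 of 4 and stellate markers in 2 of 4, in each library. In bulk tissue, fewer cells with an open site and less opening per cell cannot be told apart.

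Peaks no farther than 1000 bases from an annotated start were taken as promoter peaks. One was present in both libraries for 58 of the 67 histone genes (86.6%), against 54.1% of all protein-coding genes. Replicate 1 had such a peak at 59 genes and replicate 2 at 58. By type, both libraries had a promoter peak at 4 of 6 H1, 15 of 18 H2A, 15 of 18 H2B, 11 of 12 H3 and 13 of 13 H4 genes. By location, the counts were 19 of 23 genes in cluster 1, 27 of 31 in cluster 2, 9 of 10 in Hist2, 2 of 2 in Hist3 and 1 of 1 in Hist4. Where a gene had several peaks in reach, the highest was taken. Its median value over the histone genes was 7.33 in replicate 1 and 4.04 in replicate 2, against 5.21 and 3.60 over all protein-coding promoters with a peak. Values ran between 1.53 and 23.2 in replicate 1 and between 0.915 and 14.9 in replicate 2. The median histone gene therefore stood modestly above the median promoter in each library, with 45 of 59 genes above it in replicate 1 and 38 of 58 in replicate 2. With the nearest peak in place of the highest, the histone median was 6.11 and 3.72, with no like figure for all promoters.

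H4 genes had the highest median, 11.6 in replicate 1 and 5.91 in replicate 2. H1 genes followed with 9.01 and 5.48. H2A genes had 6.78 and 3.83, H2B genes 6.41 and 3.69, and H3 genes 5.77 and 3.95, so that the order of these last types differed between the libraries. The mean of the 2 library medians was 8.77 ± 4.05 for H4, 7.24 ± 2.50 for H1, 5.30 ± 2.09 for H2A, 5.05 ± 1.92 for H2B and 4.86 ± 1.28 for H3 (SD, n = 2 libraries), and these spreads overlap. At each of the 58 genes open in both libraries the value in replicate 1 was the higher one. The highest peak was picked in each library separately. At Hist1h2bl, Hist1h2ai, Hist1h3f, Hist1h3c and Hist1h2bb the counted peaks of the libraries did not overlap. H4 was above the other types within each library, while the ranges of single genes overlapped between all types. Of the H4 genes, 12 of 13 in replicate 1 and 10 of 13 in replicate 2 lay above the median promoter, against 6 of 11 and 7 of 11 H3 genes. With 1 group of samples, none of these differences could be tested over samples.

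**Figure D1:**
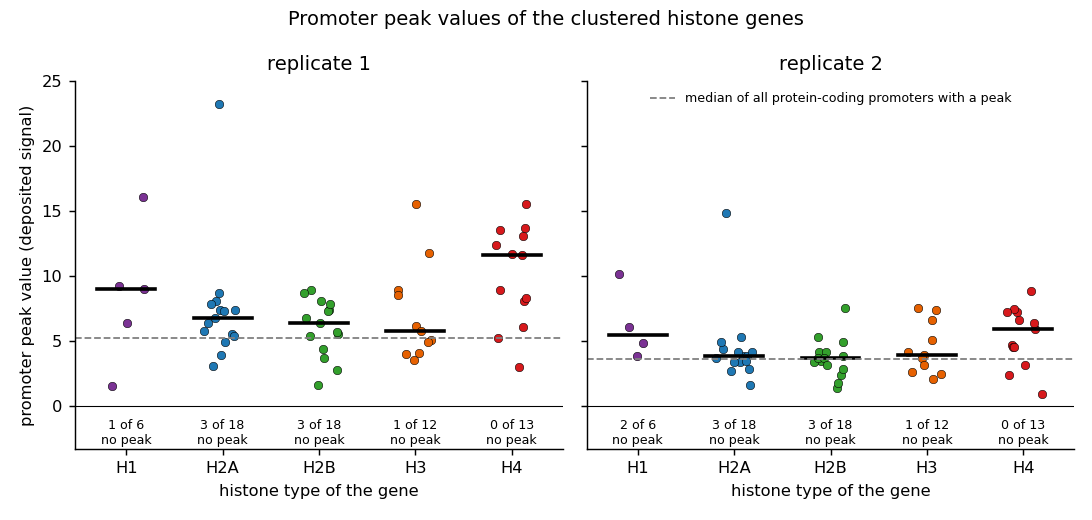
Promoter peak value (deposited signal, vertical axis) of each histone gene with a peak, by histone type, in replicate 1 (left) and replicate 2 (right). Black bars are medians, the dashed line is the median of all protein-coding promoters with a peak (5.21 and 3.60), numbers below the axis count genes without a peak, and the H4 median (11.6 and 5.91) is the highest in both panels.

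Highest and lowest genes of a type are given by the mean of their rank in both libraries. Among the H4 genes, whose product pairs with H3 in the nucleosome, Hist1h4c had 13.7 and 8.86 in replicates 1 and 2, Hist1h4i 13.5 and 7.43, and Hist1h4a 15.5 and 6.64. These peaks ranked at or above the 95.7th percentile of all peaks of their library. Hist4h4, the lone gene on chromosome 6, had 11.6 and 7.26, and Hist2h4 had 11.7 and 5.91. The lowest H4 values were those of Hist1h4m with 3.03 and 0.915, Hist1h4b with 8.34 and 2.38, and Hist1h4j with 5.26 and 3.15. The peak counted for Hist1h4m lay wholly past the 3' end of the gene. It was centred past the start by 494 bases in replicate 1 and 496 in replicate 2. The peak of Hist1h4b covered the start in both libraries. Between these, Hist1h4h had 13.1 and 7.25, Hist1h4d 12.4 and 6.36, Hist1h4f 8.93 and 4.56, Hist1h4k 8.07 and 4.69, and Hist1h4n 6.05 and 4.53. Every H4 gene thus had a peak within 1000 bases of its start in both libraries, for Hist1h4m a downstream one. The levels differed widely among them.

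The highest peak near any histone gene was that of Hist2h2aa2, an H2A gene of the Hist2 cluster, with 23.2 in replicate 1 and 14.9 in replicate 2. It lay over the start, at chr3:96240201-96240400 in replicate 1. Other high H2A genes were Hist1h2ac with 7.81 and 5.34 and Hist1h2an with 8.05 and 4.91, and both shared their peak with an H2B neighbour. The lowest H2A genes with a peak were Hist1h2ag with 6.78 and 2.83, Hist1h2af with 3.93 and 2.72, and Hist1h2ab with 3.08 and 1.62. Hist2h2ac and Hist2h2ab had 7.34 and 3.83, values of 1 peak that both genes and Hist2h2be shared, and Hist2h2aa1 had 4.92 and 4.35. Hist3h2a had 5.77 and 3.38, but its start coincides with a start of Trim17, and Hist2h2ab starts 156 bases from Bola1. Hist2h2aa2 thus stood apart from the other H2A genes, which reached 8.72 at most in replicate 1 (Hist1h2ad).

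H2B genes reached less high. Hist2h2bb had 8.91 and 7.54, Hist1h2bc 7.81 and 5.34, and Hist1h2bp 8.05 and 4.91. At the low end Hist1h2bm had 2.80 and 2.34, Hist1h2be 3.68 and 1.73, and Hist3h2ba 1.63 and 1.41, in replicate 1 the lowest of the 58 genes open in both libraries. The peak counted for Hist1h2be lay inside the gene Hist1h1e. It did not cover the GENCODE start of Hist1h2be, from which it lay 437 and 237 bases away. The peak over the other RefSeq start of Hist1h2be had 5.13 and 3.33. For H3, whose tail carries many of the known histone marks, the highest were Hist1h3a with 15.5 and 6.64, Hist1h3e with 11.8 and 7.36, and Hist2h3b with 8.91 and 7.54. The peak counted for Hist1h3a was that of Hist1h4a, 836 bases past the start of Hist1h3a in replicate 1 and 996 in replicate 2, and the peak of Hist2h3b was that of Hist2h2bb. Hist1h3e therefore had the highest H3 peak over its own start. The lowest H3 genes were Hist1h3b with 4.89 and 2.47, Hist1h3i with 3.56 and 2.59, and Hist1h3d with 4.05 and 2.09. Hist2h3c2, in the Hist2 cluster, had 5.06 and 4.14.

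Of the 6 linker histone genes, 4 had clear promoter peaks in both libraries. Hist1h1c, which encodes the somatic subtype H1.2, had 16.1 and 10.1, the second highest of all histone genes by mean rank. Hist1h1e had 9.01 and 6.09, Hist1h1a 9.23 and 4.87, and Hist1h1b 6.38 and 3.85. Hist1h1t, the testis subtype, had a peak in replicate 1 alone, at 1.53 and centred 470 bases past its start. Hist1h1d had none within 1000 bases of its GENCODE start. RefSeq places the start of Hist1h1d (there called H1f3) 1770 bases away, at position 23555032 of chromosome 13, and a peak lay over that start with 9.01 and 5.24. Measured from RefSeq, 5 of the 6 H1 genes were open in both libraries, Hist1h1t being the exception.

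Besides Hist1h1d and Hist1h1t, 7 genes had no promoter peak in either library: Hist1h2ba, Hist1h2aa, Hist1h2bq, Hist1h2ao, Hist1h2ap, Hist1h2br and Hist2h3c1. At these 7 genes and at Hist1h1d, no base within 1000 bases of a start was listed at a false discovery rate below 0.05 in either library. At Hist1h1t, 372 bases were listed in replicate 1, with a lowest rate of 0.000265, and none in replicate 2. Hist1h2ba and Hist1h2aa are the testis H2B and H2A pair at the far end of cluster 2, so that the genes without a peak in both libraries included all 3 testis histones (Hist1h1t, Hist1h2aa and Hist1h2ba).

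The other 5 genes without a peak lie in repeated sequence. For each start, the share of 36-base words in the 300 bases running 250 upstream to 50 downstream that occur elsewhere in the genome, on either strand, was counted. It was 100% for Hist1h2bq, Hist1h2ao, Hist1h2ap and Hist1h2br, and stayed at 100% over 1000 bases on each side. Of the words within 1000 bases of Hist1h2bq, 99.9% also occurred near Hist1h2br, and 98.5% of those of Hist1h2ao occurred near Hist1h2ap, so that the divergent pairs are copies of each other. Hist2h3c1 had 86.4%, with Hist2h3c2 as its nearest copy. The share was 0% for Hist1h1d, Hist1h1t, Hist1h2ba and Hist1h2aa. Of the 12 histone genes with a share of at least 10%, 7 had a promoter peak in both libraries (58.3%), against 51 of the 55 others (92.7%). Over all protein-coding genes the same classes had 17.7% and 59.8%. Nothing in the sources used here says what was done with reads that match several places, and the part of this in the missing peaks was not tested.

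**Figure D2:**
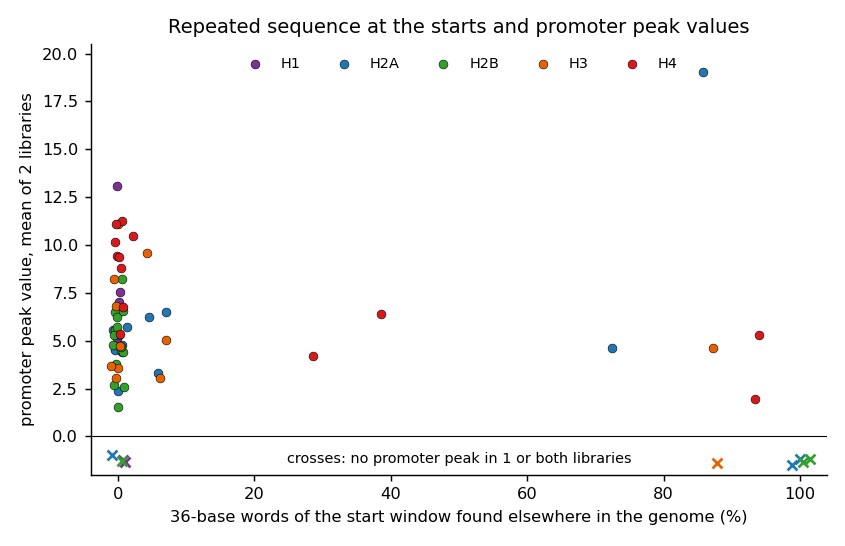
Share of 36-base words of the start window found elsewhere in the genome (horizontal, percent) against the mean promoter peak value of the 2 libraries (vertical, deposited signal), coloured by type. Points are jittered sideways, and crosses mark genes without a promoter peak in 1 or both libraries: 4 sit at a share of 100%, 1 at 86.4% and 4 at 0%.

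Repeated sequence also touches some genes with peaks. Hist2h2aa2 and Hist2h3c2 had a share of 86.4%, Hist2h2aa1 72.8%, Hist1h4m and Hist1h4n 94.3% each, Hist1h4k 37.7% and Hist1h4j 29.1%. Hist2h2aa2 and Hist2h2aa1 are each other's nearest copy, yet differed in value, 23.2 and 14.9 for Hist2h2aa2 and 4.92 and 4.35 for Hist2h2aa1. Hist1h4n had 6.05 and 4.53, against 3.03 and 0.915 at its copy Hist1h4m. Levels of these genes are uncertain, since reads from copies cannot be told apart where the sequence is the same. The share describes the start window, and the counted peak can be repeated where the window is not. Recurring words made up 86.4% and 100% of the peaks of Hist3h2ba in replicates 1 and 2. For Hist1h2bm they made up 62.2% and 72.8%, and for Hist1h3i 56.1% and 68.1%. The levels of such genes are uncertain too, and they stay in when the 12 genes are left out. Without the 12 genes, the median value of the remaining 51 was 7.34 and 3.85, and 9 of 9 H4 genes had a promoter peak in both libraries.

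Many histone genes stood so close that they shared an opening. The 59 genes with a peak in replicate 1 drew on 47 distinct peaks and the 58 genes in replicate 2 on 44. In each library 9 of these joined H2A with H2B genes. There were 13 divergent pairs, on opposite strands with starts 176 to 660 bases apart (median 268) and transcribed away from each other, and 12 of them joined an H2A with an H2B gene. Both partners were open in both libraries in 10 pairs, and the partners had 1 peak in common in 9 pairs of replicate 1 and 10 of replicate 2. The other 3 pairs, Hist1h2bq with Hist1h2ao, Hist1h2ap with Hist1h2br, and Hist1h2ba with Hist1h2aa, had no peak at either partner. The partners of each pair were thus open or not open together, and with starts this close 1 peak lies in reach of both.

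The highest H2A and H2B pair, Hist1h2ac with Hist1h2bc, is set beside the testis pair, to show that both carry CCAAT boxes and an octamer between their starts. Both are printed on the plus strand from the mm10 reference, at chr13:23683960-23684198 and chr13:23934157-23934436, with CCAAT boxes (either strand) and the octamer ATTTGCAT (either strand) in capitals.
Hist1h2ac to Hist1h2bc: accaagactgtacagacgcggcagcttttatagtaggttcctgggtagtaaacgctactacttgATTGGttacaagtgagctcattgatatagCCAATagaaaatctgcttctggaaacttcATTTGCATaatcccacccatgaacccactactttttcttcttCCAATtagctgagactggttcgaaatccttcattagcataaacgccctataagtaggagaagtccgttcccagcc
Hist1h2ba to Hist1h2aa: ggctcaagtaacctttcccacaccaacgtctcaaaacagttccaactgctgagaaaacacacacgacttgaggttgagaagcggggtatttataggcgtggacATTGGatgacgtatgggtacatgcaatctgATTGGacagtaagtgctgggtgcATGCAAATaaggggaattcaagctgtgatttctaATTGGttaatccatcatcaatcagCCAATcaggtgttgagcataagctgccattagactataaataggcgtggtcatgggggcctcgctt
The open pair had 7.81 and 5.34, and the testis pair had no peak in either library.

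Promoter peaks of histone genes had a median width of 240 bases in replicate 1 and 280 in replicate 2. The counted peak covered a start of its gene in 38 of 59 genes and 36 of 58, with no like figure for all promoters. More than 1 peak lay in reach of 45 of 59 genes in replicate 1 (76.3%) and 41 of 58 in replicate 2 (70.7%), against 55.4% and 52.4% of all protein-coding genes with a promoter peak. Some of these belong to the neighbouring gene. Counted once each, 100 peaks in replicate 1 and 90 in replicate 2 lay within 1000 bases of a histone gene start. Of these, 45 in each library covered a start, and 35 and 28 lay inside a histone gene past its start.

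The 58 genes open in both libraries had a median log2 ratio (replicate 2 over 1) of -0.71, against -0.70 over all protein-coding promoters open in both. At Hist1h2bl, Hist1h2ai, Hist1h3f, Hist1h3c and Hist1h2bb the ratio compares peaks that do not overlap. After the running median of peaks of like height was taken off, the median was 0.06 against 0.03. The largest departures were Hist1h4m at -1.34 and Hist1h4b at -1.13 on the low side, and Hist2h3b with Hist2h2bb at 0.76, Hist2h2aa2 at 0.69 and Hist1h1c at 0.60 on the high side. Histone promoters thus followed the difference between the libraries seen at promoters in general.

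**Figure D3:**
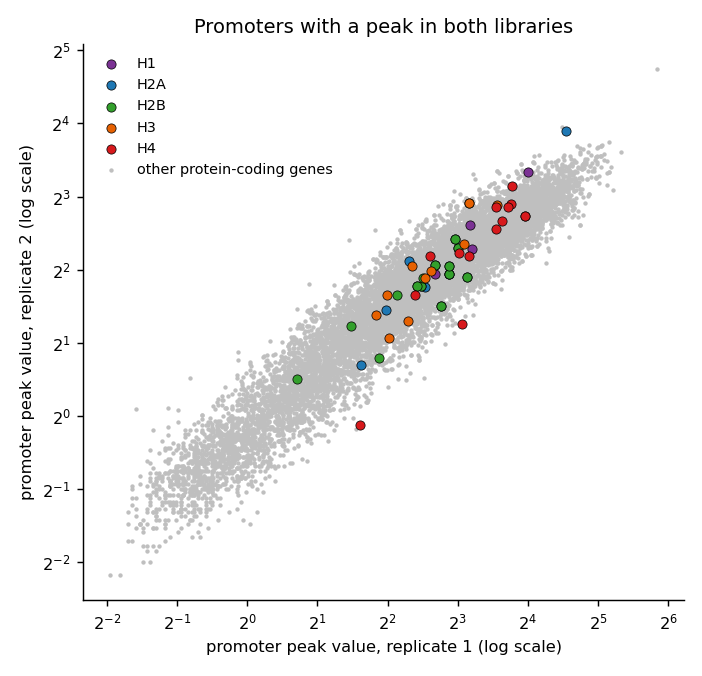
Promoter peak values of the 58 histone genes open in both libraries (coloured by type) and of other protein-coding genes (grey), replicate 1 on the horizontal and replicate 2 on the vertical axis, both on a log scale. Most histone genes lie inside the grey cloud, with Hist1h4m (3.03 and 0.915) and Hist1h4b (8.34 and 2.38) toward its lower edge.

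Nearly every open histone promoter held footprints. In 56 of the 58 genes open in both libraries (96.6%) the promoter peak held a footprint in both, against 93.3% of protein-coding genes open in both, a share close to that background. The exceptions were Hist1h4m and Hist1h2be, with none in replicate 2. The peak counted for Hist1h2be lay inside the gene Hist1h1e. The peak over the other RefSeq start of Hist1h2be held 8 footprints in replicate 1 and 4 in replicate 2. The median was 5 footprints in each library, against 4 at all protein-coding promoters. Footprints were 12 and 11 bases wide in the median and 7 bases at the least. Of the 243 footprints in replicate 1, 61.7% overlapped one in replicate 2, and of the 226 in replicate 2, 71.7% overlapped one in replicate 1. For H4 genes the shares were 65.2% and 82.0%. These shares have no like figure for all promoters.

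Footprints of H4 genes were most frequent from 60 to 21 bases upstream of the GENCODE gene start, from which all distances here were measured. RefSeq starts differed by more than a 20-base bin at some genes, by 48 bases at Hist1h4k, 76 at Hist1h4b and 85 at Hist1h2ak. The bins therefore depend on the annotation. Between 60 and 41 bases upstream, 12 of the 13 H4 genes had a footprint in replicate 1 and 10 of 13 in replicate 2, against 45.7% and 35.4% of all protein-coding genes open in both libraries. From 40 to 21 bases upstream the H4 counts were 10 and 11 of 13, against 46.7% and 37.8%. In H3 genes, 9 of 11 and 8 of 11 had a footprint in the last 20 bases before the start, against 46.9% and 38.6%. All 4 open H1 genes had one there in each library. H2A and H2B genes stayed nearer the general level, with 9 and 8 of 15 H2A genes and 7 and 3 of 15 H2B genes between 60 and 41 bases upstream.

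**Figure D4:**
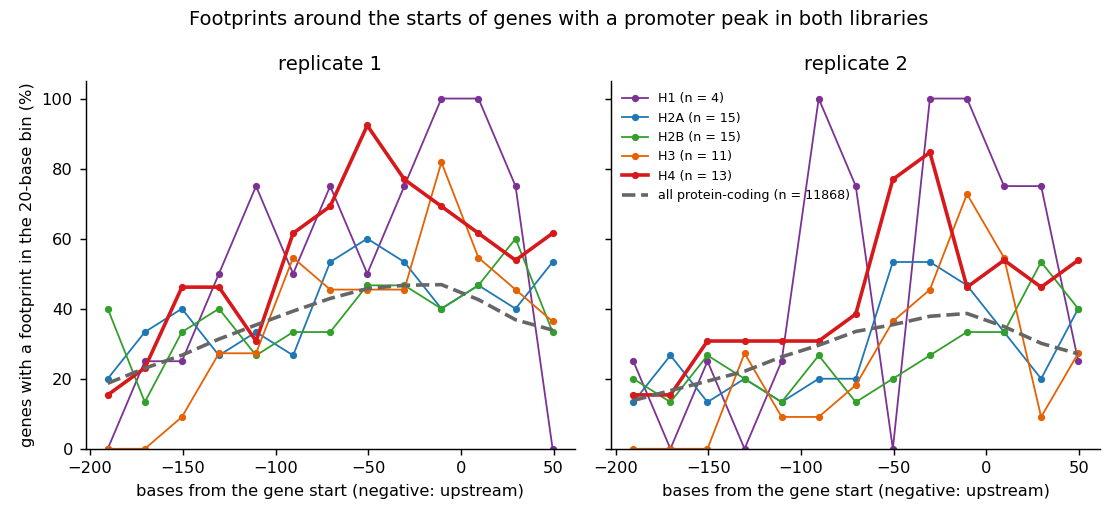
Share of genes with a footprint in each 20-base bin (vertical, percent) by distance from the GENCODE gene start (horizontal, negative upstream), in replicate 1 (left) and replicate 2 (right). Lines show each histone type and all protein-coding genes open in both libraries (dashed). H4 genes reach 12 of 13 between 60 and 41 bases upstream in replicate 1 and 11 of 13 between 40 and 21 in replicate 2.

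In the 300-base windows, searched on both strands, the H4 core GGTCCG was found in 12 of 13 H4 genes, in 1 of 18 H2B and 2 of 12 H3 genes, in no H1 or H2A gene, and in 9.60% of all protein-coding windows. Hist1h4a was the H4 gene without it. All 12 matches were on the sense strand, with the first base 80 to 11 bases upstream of the GENCODE start (median -49). RefSeq starts differed by 48 bases at Hist1h4k, 30 at Hist1h4j and 76 at Hist1h4b. From the RefSeq start of Hist1h4b, position 23756937, its match at chr13:23756943-23756948 lies downstream. The lines below show the surroundings of each match in the sense of the gene, from the mm10 reference, because most of these matches met a footprint. GGTCCG is in capitals.
Hist2h4: agttttcaatctGGTCCGatcct
Hist4h4: tgttttcaatcaGGTCCGctccc
Hist1h4j: ggttctcatttcGGTCCGcccgc
Hist1h4k: ggttctcatttcGGTCCGcccgc
Hist1h4m: tgttttcactccGGTCCGcaagt
Hist1h4n: tgttttcactccGGTCCGcaagt
Hist1h4i: tgttttcactccGGTCCGcaagt
Hist1h4h: agtcttcaatcaGGTCCGaaaac
Hist1h4f: agtcctctaaaaGGTCCGcattc
Hist1h4d: ggttttcaaacaGGTCCGcattg
Hist1h4c: agttttcaaccaGGTCCGcagaa
Hist1h4b: agttctcaaccaGGTCCGataag
The lines of Hist1h4j and Hist1h4k were identical, as were those of Hist1h4m, Hist1h4n and Hist1h4i. Of the 12 bases before the match, 4 held the same letter in all 12 lines. Their places, with the strand, were chr3:96263369-96263391 (minus) for Hist2h4, chr6:136804453-136804475 (minus) for Hist4h4, chr13:21735004-21735026 (plus) for Hist1h4j and chr13:21750575-21750597 (minus) for Hist1h4k. The next were chr13:21811687-21811709 (plus) for Hist1h4m, chr13:21832233-21832255 (minus) for Hist1h4n, chr13:22041398-22041420 (minus) for Hist1h4i and chr13:23531027-23531049 (plus) for Hist1h4h. The last were chr13:23551704-23551726 (minus) for Hist1h4f, chr13:23581509-23581531 (plus) for Hist1h4d, chr13:23698494-23698516 (minus) for Hist1h4c and chr13:23756931-23756953 (plus) for Hist1h4b. The Hist1h4b stretch lies in a GENCODE exon of an antisense noncoding gene, and the others overlap no GENCODE exon.

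The H4 core lay in or at the edge of footprints. By an overlap of at least 1 base, 11 of the 12 matches met a footprint in replicate 1 and 7 of 12 in replicate 2, against 27.2% and 19.9% of the 1836 matches in all protein-coding promoters open in both libraries. All 6 bases were covered in 6 of 12 matches in replicate 1 and in 1 of 12 in replicate 2, against 12.8% and 7.08% over all promoters. At Hist1h4j all 6 bases were covered in both libraries. At Hist1h4i 6 and 5 bases were covered, at Hist1h4k 6 and 5, and at Hist1h4n 5 and 5. At Hist1h4c the coverage was 5 and 1 bases, at Hist1h4d 6 and 2, at Hist4h4 1 and 5. Hist2h4, Hist1h4h, Hist1h4f and Hist1h4b were covered in replicate 1 alone, and Hist1h4m in neither. The H4 matches began between -80 and -11 from the start, while the matches of all promoters came from the whole window. Over all protein-coding genes open in both libraries, 18.7% and 13.8% had a footprint from -200 to -181 in replicates 1 and 2. From -60 to -41 these were 45.7% and 35.4%. H4 genes also had the highest median peak value of the types. The parts of position and of peak height in the shares of H4 matches were not tested.

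The upstream stretches of the highest H4, H3 and H1 genes with a peak over the start are given next, to show where footprints called in both libraries lie. Each runs 200 bases on the sense strand of mm10, Hist1h4c at chr13:23698459-23698658 (minus strand), Hist1h3e at chr13:23562386-23562585 (minus strand) and Hist1h1c at chr13:23738607-23738806 (plus strand), with bases inside a footprint of both libraries in capitals.
Hist1h4c: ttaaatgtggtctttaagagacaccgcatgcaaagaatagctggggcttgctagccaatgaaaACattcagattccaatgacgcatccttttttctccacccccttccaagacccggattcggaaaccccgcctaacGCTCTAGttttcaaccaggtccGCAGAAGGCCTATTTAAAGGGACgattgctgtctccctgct
Hist1h3e: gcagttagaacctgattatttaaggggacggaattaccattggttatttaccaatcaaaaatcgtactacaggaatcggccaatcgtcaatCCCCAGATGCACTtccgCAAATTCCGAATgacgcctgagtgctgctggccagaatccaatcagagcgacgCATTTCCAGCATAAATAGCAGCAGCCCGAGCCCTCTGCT
Hist1h1c: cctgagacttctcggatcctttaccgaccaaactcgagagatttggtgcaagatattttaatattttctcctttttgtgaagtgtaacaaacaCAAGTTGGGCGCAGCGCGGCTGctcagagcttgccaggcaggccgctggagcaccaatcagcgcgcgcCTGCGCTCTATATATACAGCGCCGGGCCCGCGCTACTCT
The capitals covered 32, 64 and 61 bases. In Hist1h4c the block nearest the start began at the last letter of GGTCCG. In Hist1h3e and Hist1h1c the last block reached the base before the RefSeq start.

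CCAAT boxes were found in 5 of 6 H1, 18 of 18 H2A, 18 of 18 H2B, 11 of 12 H3 and 4 of 13 H4 windows, against 39.0% of all protein-coding windows. Windows of divergent partners overlap, so that 1 match can count for both. Few of these boxes met a footprint: of 130 matches in histone genes open in both libraries, 23 did in replicate 1, 16 in replicate 2 and 11 in both (8.46%), against 12.6% in both over all promoters. TATAAA was found in 4 of 6 H1, 12 of 18 H2A, 10 of 18 H2B, 4 of 12 H3 and 7 of 13 H4 windows, against 12.6% of all. Of 37 TATAAA matches in open histone genes, 25 met a footprint in replicate 1 and 12 in replicate 2. In both libraries 11 did (29.7%), against 6.4% over all promoters. Matches of divergent partners can again count for both. The median first base was -185 in H2B, -112 in H3, -64 in H4, -57 in H2A and -29.5 in H1 windows. In replicates 1 and 2, 2 and 3 of 3 H1, 5 and 1 of 11 H2A, and 4 and 0 of 10 H2B matches were covered whole. H3 had 2 and 1 of 6, and H4 4 and 3 of 7, against 5.54% and 4.05% over all promoters. The part of position was not tested.

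The octamer ATTTGCAT was found in 7 of 18 H2A and 8 of 18 H2B windows, in no H1, H3 or H4 window, and in 1.57% of all windows. Of these 15 windows, 10 belong to divergent partners that share an octamer. Of 13 matches in open genes, 2 met a footprint in both libraries, against 4.81% over all promoters. Both counts come from the single octamer between Hist1h2ah and Hist1h2bk. No octamer of an open histone gene was covered whole in either library. The E2F letters TTTCGCGC were found in 5 H2A and 4 H2B windows and in 0.351% of all windows. Of the 9 matches, 7 met a footprint in replicate 1 and 2 in replicate 2, against 59.4% and 33.3% over all promoters. Every match but that of Hist1h2af is shared by divergent partners and so counted for both. The 2 matches of replicate 2 are the single site shared by Hist1h2bf and Hist1h2ad. In replicate 1, 2 of 5 H2A and 2 of 4 H2B matches were covered whole, against 23.2% over all promoters. In replicate 2 none was, against 18.8%. The GC box GGGCGG was found in 10 of 13 H4 windows, 7 of 18 H2A, 5 of 18 H2B, 4 of 6 H1 and 2 of 12 H3 windows, against 43.0% of all. Overlaps between the motifs in histone windows were 2 of GGTCCG with GC boxes and 1 of GGTCCG with a CCAAT box. Windows were poorer in G and C than promoters in general, with a median of 45.3% against 55.0%, while the median number of CG pairs was 11 in both.

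The AC box AAACACA of H1 genes was found in 4 of 6 H1 windows, there always on the sense strand and with its first base 117 to 113 bases upstream. It was also found in 3 of 18 H2B, 1 of 18 H2A and 1 of 12 H3 windows, in no H4 window, and in 6.4% of all windows. Its surroundings in H1 genes, 25 bases on the sense strand of mm10 with the box in capitals, are shown to compare the testis gene Hist1h1t with the other subtypes.
Hist1h1b: gggactaacAAACACAatttgggat
Hist1h1e: aggtgtaacAAACACAactccgcat
Hist1h1t: ggggaaaagAAACACAaatgcccct
Hist1h1c: aagtgtaacAAACACAagttgggcg
The lines came from chr13:21780727-21780751 (minus) for Hist1h1b, chr13:23622658-23622682 (minus) for Hist1h1e, chr13:23695688-23695712 (plus) for Hist1h1t and chr13:23738686-23738710 (plus) for Hist1h1c, outside GENCODE exons. The 4 lines had the same letter at 12 of 25 places. By an overlap of at least 1 base, the box of Hist1h1c met a footprint in both libraries and that of Hist1h1b in replicate 1. Those of Hist1h1e and Hist1h1t met one in neither. No AC box of an open H1 gene was covered whole in either library.

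The Hist1 clusters on chromosome 13 also held peaks over 1000 bases from every histone gene start. In cluster 1, 37 of 65 peaks in replicate 1 and 35 of 62 in replicate 2 were of this kind, against 13 of 63 and 9 of 49 in cluster 2. Over both clusters, 40 of 50 such peaks in replicate 1 (80.0%) and 40 of 44 in replicate 2 (90.9%) overlapped a peak of the other library. Among all peaks over 1000 bases from a protein-coding start, 51.2% in replicate 1 and 77.8% in replicate 2 did so. Their median value was 3.30 and 2.31 in cluster 1 and 2.88 and 1.97 in cluster 2, below the median histone promoter in each library.

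Most of the other peaks of cluster 1 lay over tRNA genes, which RNA polymerase III transcribes. Of these peaks, 28 of 37 in replicate 1 and 26 of 35 in replicate 2 overlapped a RefSeq tRNA gene, with median values of 3.65 and 2.65. Among all peaks over 1000 bases from a protein-coding start, 0.815% in replicate 1 and 1.22% in replicate 2 overlapped one. Cluster 1 holds 31 tRNA genes, all in the interval without histone genes between Hist1h2br and Hist1h2ah, and cluster 2 holds none. A peak covered 26 of the 31 in both libraries (83.9%), against 56.6% of the 403 tRNA genes of the genome. Between the clusters, 37 of 46 tRNA genes had one in both (80.4%). The highest were a pair of tRNA-Ser peaks at chr13:21937061-21937300 with 10.03 and 7.80 and at chr13:21919161-21919360 with 8.58 and 6.07, followed by a tRNA-Val peak at chr13:22026441-22026640 with 6.10 and 5.13. All tRNA peaks of cluster 1 in replicate 1 hold repeated sequence, with 2.07% to 59.5% recurring 36-base words. In replicate 2 all do but that at chr13:21940381-21940560. The part of repeated sequence was not tested.

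**Figure D5:**
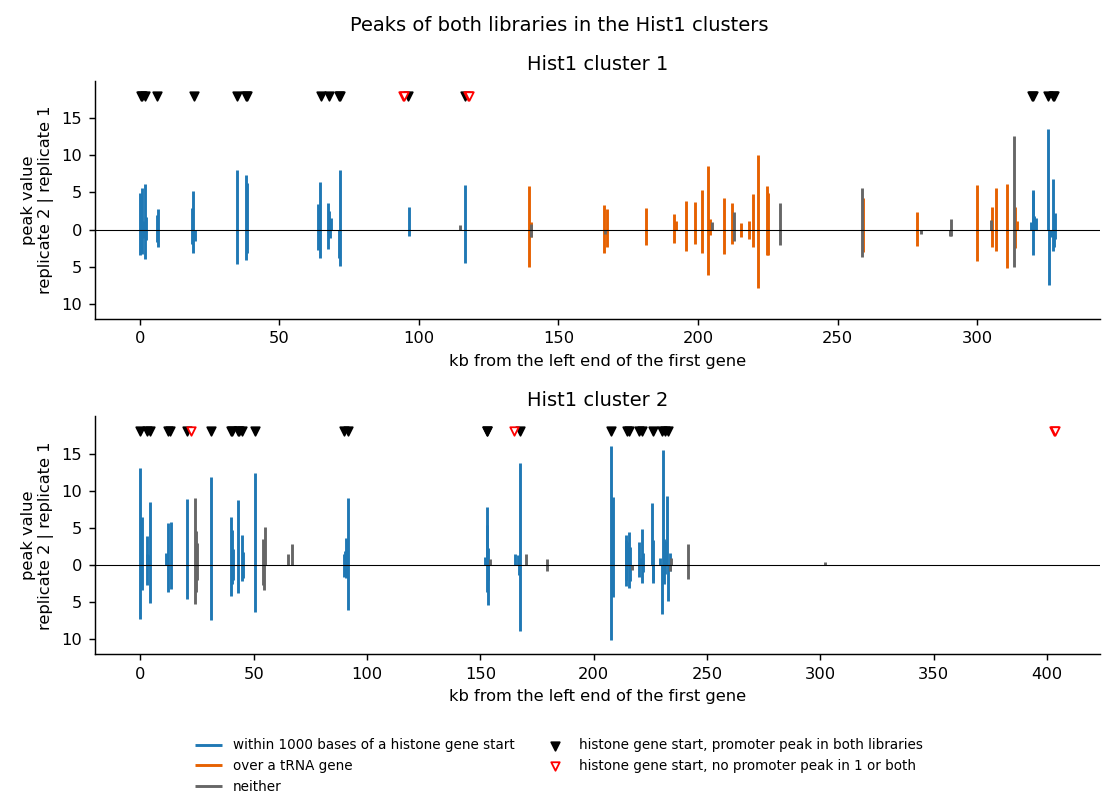
Peaks of the Hist1 clusters by position (horizontal, kb from the left end of the first gene), with their value (deposited signal) drawn upward for replicate 1 and downward for replicate 2, coloured by class. Triangles mark histone gene starts, and the 28 and 26 peaks over tRNA genes fill the part of cluster 1 that has no histone gene start.

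In cluster 2, 5 other peaks in each library lay within 1000 bases of a RefSeq start of a histone gene, 3 at Hist1h1d and 2 at Hist1h2be. That other RefSeq start of Hist1h2be is 35108 bases from the nearest GENCODE start. A peak near the start of Hfe, the hemochromatosis gene, had 0.776 in each library. In cluster 1, peaks near the starts of Zfp184 and Gm11280 had 3.57 and 2.09, and those near Prss16 reached 1.42 and 0.846. Over no tRNA gene and with no other annotated start in reach there remained 7 and 6 peaks in cluster 1 and 7 and 3 in cluster 2, with median values of 1.26 and 1.22 in cluster 1 and 1.52 and 0.832 in cluster 2. A tRNA gene lay within 1000 bases of 6 of the 7 and 6 of the 6 in cluster 1, and of none in cluster 2.

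The highest of these, at chr13:22028761-22028980, had 12.6 in replicate 1 and 5.06 in replicate 2, the second highest of the other peaks by mean rank. No 36-base word of it recurs in the genome, and it held 3 footprints in each library. A tRNA gene lay within 1000 bases but not under it. Its plus-strand sequence from mm10 is printed because the peak was above the median histone promoter in both libraries and overlapped no GENCODE exon, with bases in a footprint of both libraries in capitals.
chr13:22028761-22028980: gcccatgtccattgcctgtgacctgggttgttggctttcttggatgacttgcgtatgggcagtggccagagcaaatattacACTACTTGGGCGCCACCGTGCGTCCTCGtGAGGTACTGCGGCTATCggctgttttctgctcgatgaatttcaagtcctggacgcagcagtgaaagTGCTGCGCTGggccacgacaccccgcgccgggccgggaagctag
The capitals covered 55 bases.

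Genes outside the rule give a comparison. Of the 26 genes listed for factors of histone gene expression, 26 had a promoter peak in both libraries, with median values of 9.98 and 5.60. By mean rank the highest were Nfya, an NF-Y subunit, with 29.4 and 10.7, Ccne1, cyclin E1, with 21.5 and 11.3, and Npat with 21.7 and 8.35. Hinfp had 16.6 and 6.36, Pou2f1 14.8 and 7.79, and Slbp 11.1 and 9.04. Of 15 histone chaperone genes, 15 had one in both, with medians of 12.1 and 5.89 and the highest values at Chaf1b with 18.6 and 8.91, Nap1l4 with 17.0 and 8.33, and Ubn1 with 17.3 and 7.64. Of 15 histone genes outside the clusters, most of them replacement variants, 10 had one in both, with medians of 11.1 and 5.64. By mean rank the highest were H2afx with 17.2 and 9.41, H2afv with 17.4 and 7.92, and H3f3b with 13.3 and 7.15. H1fx, H1foo (the oocyte linker histone), H2afb1 and H2bfm had none in either library, and H1fnt, a testis linker histone, had 0.43 in replicate 2 alone. The medians of the clustered histone genes, 7.33 and 4.04, lay below those of each list in both libraries.

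Annotated histone pseudogenes, which the rule leaves out, had peaks as well. Hist1h2al at chr13:51202727-51203065, called a processed pseudogene, had 6.99 and 4.41 within 5 bases of its start. The peaks counted for Hist1h2aj (2.80 and 2.34) and Hist3h2bb-ps (5.77 and 3.38) were those of Hist1h2bm and Hist3h2a.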

How the data were processed

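For each library the authors deposited 2 peak lists of different length, footprints, and false discovery rates of the cut rate. Per the file headers and readme these came from filtered alignments to mm10. No source used here gives the caller, its thresholds, the scaling or the read depth. The deposited peak value was used as a signal on the authors' scale, the deposited false discovery rate (a p-value type of measure, listed below 0.05) described bases near starts, and of footprints the positions were used, since the deposited score was the constant 0.01. The longer peak list was the main one. Starts came from GENCODE vM21, and sequence, tRNA genes and second starts from RefSeq GRCm38.p6, which is the same build. Of the 67 genes, 61 matched a RefSeq promoter entry. Running medians used 250 peaks on each side. Peak assignment and word counting were tested on simulated data. Python 3.11.15, numpy 2.4.6, pandas 2.3.3 and scipy 1.17.1 were used. No test between groups was possible with 1 group. By rule the text names the 3 highest and 3 lowest genes per type, every gene lacking a peak, all H1 genes, all genes outside Hist1, the 3 highest of related lists and the 5 highest other peaks; Hist1h3e for printing, and other genes that the rule leaves out, were picked with their values in view. One marker gene is not reported here. The members, lists and motifs were chosen with earlier results of these data known.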

Additional observations from a re-analysis of the deposited data

How the results depend on the processing

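The 21 results were recomputed under 156 alternative settings, and 151 of the values kept their direction and stayed within 1.5 times the count, within 1 SD between libraries for medians, or within 0.1 for the log2 ratio. The SD between the library medians was 2.33 for all histone genes, a limit so wide that it says little on the medians. The median itself ran between 6.11 and 7.34 in replicate 1 and between 3.72 and 4.35 in replicate 2, the lowest with the nearest peak. The number of histone genes with a promoter peak in both libraries ran between 51 (repeated starts left out, 55 genes tested) and 65 (2500 bases), and between 58 and 59 without a replicate. With the running median taken off, the median log2 ratio was 0.06, against -0.71 without that step, by construction. With clusters joined at 100 kb or less, the interval with the tRNA genes drops out and the other peaks were 11 in replicate 1 and 7 in replicate 2, against 50 and 44. With peaks over tRNA genes left out they were 22 and 18. RefSeq starts (54 of 61 genes), 76-base words (53 of 57) and the removal of tRNA peaks were chosen after seeing the data. No paired analysis was possible because there was 1 group of 2 libraries and no comparison between groups. Read depth, the handling of repeated sequence and the lack of a control limit what the peak lists can show.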
